A study of Mus musculus with 7 samples.

Results

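Long noncoding RNAs that stay in the nucleus or come from imprinted loci were examined in mouse lungs with and without Gata5. The 10 RNAs were Malat1, Neat1, Meg3, Rian, Mirg, Kcnq1ot1, Miat, Gas5, Snhg1 and Snhg11, and the RefSeq gene table gives each the type lncRNA. All probe sets with 1 of these symbols as their only gene in the platform annotation were taken, which gave 45 of the 45037 probe sets that are not controls: 11 for Meg3, 7 for Malat1, 6 for Kcnq1ot1, 5 for Snhg1, 4 each for Gas5 and Rian, and 2 each for Neat1, Mirg, Miat and Snhg11. A further probe set carries both Gas5 and a small nucleolar RNA gene and was left out. The rule for taking probe sets uses no measured value, but the RNAs themselves were picked with earlier results of these data known.

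Left lungs were taken from 3 mice with a Gata5 knockout (KO) and 4 wild-type mice (WT), all 8 weeks old, and the total RNA of each lung was hybridised to 1 Affymetrix array of mouse genes. The labels call the samples of a group biological replicates; they give neither the strain nor the targeted exons. Values are log2 levels, so a difference of 1 is a doubling, and a probe set was called where limma's adjusted p fell under 0.05 over all 45037 probe sets. Levels of different probe sets depend on their probes and are not compared as amounts of RNA.

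Array medians ranged from 6.10 to 6.15 on the log2 scale. Gata5 itself was dim: probe set 1450126_at averaged 4.95 over the 3 KO arrays (SD 0.22) against 5.54 over the 4 WT arrays (SD 0.22; limma adjusted p = 0.0336), and 1450125_at differed by -0.26 (adjusted p = 0.0993). Whether these probes lie in the deleted part is not given. WT replicate 4 stood apart at Xist, a noncoding RNA of the inactive X chromosome, with a log2 level of 12.72 against 6.31 to 6.48 on the other 6 arrays. The lung markers Scgb1a1 and Ager were among the brightest signals of all arrays, with group means from 14.12 to 14.54. Of 4 contrasts between control probe sets along 1 transcript, 3 differed with genotype, the beta-actin contrast of 3′ and middle signals among them. The beta-actin 3′ signal exceeded the 5′ signal by 4.74 to 5.39 on KO and 3.88 to 4.31 on WT arrays, and the Gapdh 3′ signal exceeded the middle signal by 3.85 to 4.31 on KO and 3.33 to 3.68 on WT arrays (each exact permutation p = 0.0286, two-sided, the smallest that 35 splits allow). The fourth, Gapdh 3′ minus 5′, overlapped, at 6.36 to 6.51 on KO and 6.36 to 6.60 on WT arrays (exact permutation p = 0.686).

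Malat1 and Neat1 are neighbouring, highly abundant nuclear transcripts. Malat1 gathers in nuclear speckles, where splicing factors are stored, and Neat1 is the scaffold of paraspeckles. Meg3, Rian and Mirg are read from the maternal chromosome of the imprinted Dlk1-Dio3 region and carry microRNAs and small nucleolar RNAs in their introns and exons. Kcnq1ot1 is transcribed from the paternal chromosome within Kcnq1 and silences neighbouring genes of that chromosome. Miat is a nuclear RNA known best from neurons. Gas5, Snhg1 and Snhg11 are hosts of small nucleolar RNAs, which guide the modification of other RNAs, and spliced Gas5 and Snhg1 are degraded when ribosomes meet their early stop codons.

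Sequences at the annotated starts of the RNAs with a called probe set are shown so that the Gata5 question can be read against the letters themselves. They come from RefSeq's GRCm38.p6, cover 250 bases before to 50 bases after a start, run 5′ to 3′ on the gene's strand, and carry in capitals every match, on either strand, to a GATA string (the letters GATA after A or T and before A or G), to TGACGTCA, the CREB-type element, to TATAAA, called a TATA string here, or to the shorter CCAAT.
Malat1, chr19:5802623-5802922, minus strand: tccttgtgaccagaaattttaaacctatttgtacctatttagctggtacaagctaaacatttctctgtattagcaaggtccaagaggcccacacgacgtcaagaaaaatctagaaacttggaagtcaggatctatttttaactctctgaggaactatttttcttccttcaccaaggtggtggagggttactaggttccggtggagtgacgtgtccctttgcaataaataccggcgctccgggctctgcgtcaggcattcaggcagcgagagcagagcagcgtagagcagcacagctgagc
Meg3, chr12:109540746-109541045, plus strand: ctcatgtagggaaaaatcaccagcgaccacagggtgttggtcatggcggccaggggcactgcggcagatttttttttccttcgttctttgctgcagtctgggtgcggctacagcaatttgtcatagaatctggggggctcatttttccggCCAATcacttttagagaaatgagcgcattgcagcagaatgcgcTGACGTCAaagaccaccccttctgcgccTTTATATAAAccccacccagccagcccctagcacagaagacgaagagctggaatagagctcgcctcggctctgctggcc
Kcnq1ot1, chr7:143296498-143296797, minus strand: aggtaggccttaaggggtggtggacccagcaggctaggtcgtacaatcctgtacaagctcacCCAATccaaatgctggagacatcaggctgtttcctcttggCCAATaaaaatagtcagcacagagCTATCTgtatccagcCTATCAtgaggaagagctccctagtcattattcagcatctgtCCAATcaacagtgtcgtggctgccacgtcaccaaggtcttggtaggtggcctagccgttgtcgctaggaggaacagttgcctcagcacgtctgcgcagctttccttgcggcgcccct
Snhg1, chr19:8723237-8723536, plus strand: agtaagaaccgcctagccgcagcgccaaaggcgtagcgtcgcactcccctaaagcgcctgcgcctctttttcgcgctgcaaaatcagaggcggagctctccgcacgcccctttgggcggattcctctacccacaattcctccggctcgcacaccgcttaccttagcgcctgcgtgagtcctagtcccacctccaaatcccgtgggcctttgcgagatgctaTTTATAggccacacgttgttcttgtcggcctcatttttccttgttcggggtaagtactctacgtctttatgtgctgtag
Kcnq1ot1 held 2 GATA strings, both read on the opposite strand, beside 3 CCAAT strings; the Malat1, Meg3 and Snhg1 windows held no GATA string. Meg3 held TGACGTCA, 1 CCAAT string and a pair of overlapping TATA strings, 1 on each strand. Snhg1 held 1 TATA string, read on the opposite strand. A second Meg3 start in the table held none of these letters. Over all 32851 start windows of the same length, 29.8% held a GATA string, 1.79% TGACGTCA, 13.6% a TATA string and 37.4% a CCAAT string. Of the other members, Rian held 1 GATA string, Mirg 1 CCAAT string and 1 of 2 Gas5 windows TGACGTCA, while the windows of Miat and Snhg11 held none of the 4 kinds, and Neat1 had no matching entry. A match is a run of letters and not evidence of binding.

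The imprinted hosts are also shown by what they carry. Within the annotated spans of Meg3, Rian and Mirg the RefSeq table used here lists 3, 6 and 19 mature microRNAs, and 11 small nucleolar RNA genes lie within Rian. The mature sequences below give 1 example for Meg3, 1 for Rian and 3 for Mirg, with the seed, bases 2 to 8, in capitals; miR-453 and miR-496a-5p share theirs.
miR-770-5p, in Meg3: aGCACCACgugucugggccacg
miR-370-3p, in Rian: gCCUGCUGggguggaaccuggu
miR-410-3p, in Mirg: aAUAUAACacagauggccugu
miR-453, in Mirg: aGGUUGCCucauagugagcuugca
miR-496a-5p, in Mirg: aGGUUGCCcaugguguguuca
The named probe sets report the host RNAs; the levels of these microRNAs were not analysed here.

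Of the 10 RNAs, 4 were called at 1 or more probe sets and 6 at none. Malat1 fell at 2 probe sets and rose at 1, Meg3 rose at 2, Snhg1 rose at 1 and Kcnq1ot1 fell at 1. No probe set of Neat1, Rian, Mirg, Miat, Gas5 or Snhg11 passed. In all, 7 of 45 probe sets were called (15.6%), 4 higher and 3 lower, beside 9.89% of all probe sets, 3.53% higher and 6.37% lower. The median log2 change over the 45 was 0.11, against 0.04 over all probe sets, with 28 positive and 17 negative differences. KO and WT arrays did not overlap at 11 of the 45 (24.4%), near the 23.4% of all probe sets. Of the 45, 35 lay at or above a mean log2 level of 5.47, the 40th percentile; among those 8 were called when only such probe sets were tested, beside 17.5% of all. The 1634 probe sets of other lncRNA genes were called higher at 5.32% and lower at 0.612%, with a median log2 change of 0.10. Their median log2 level was 4.61, under the 5.47 of the level filter, so they are not matched to the 45 in level.

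**Figure D1:**
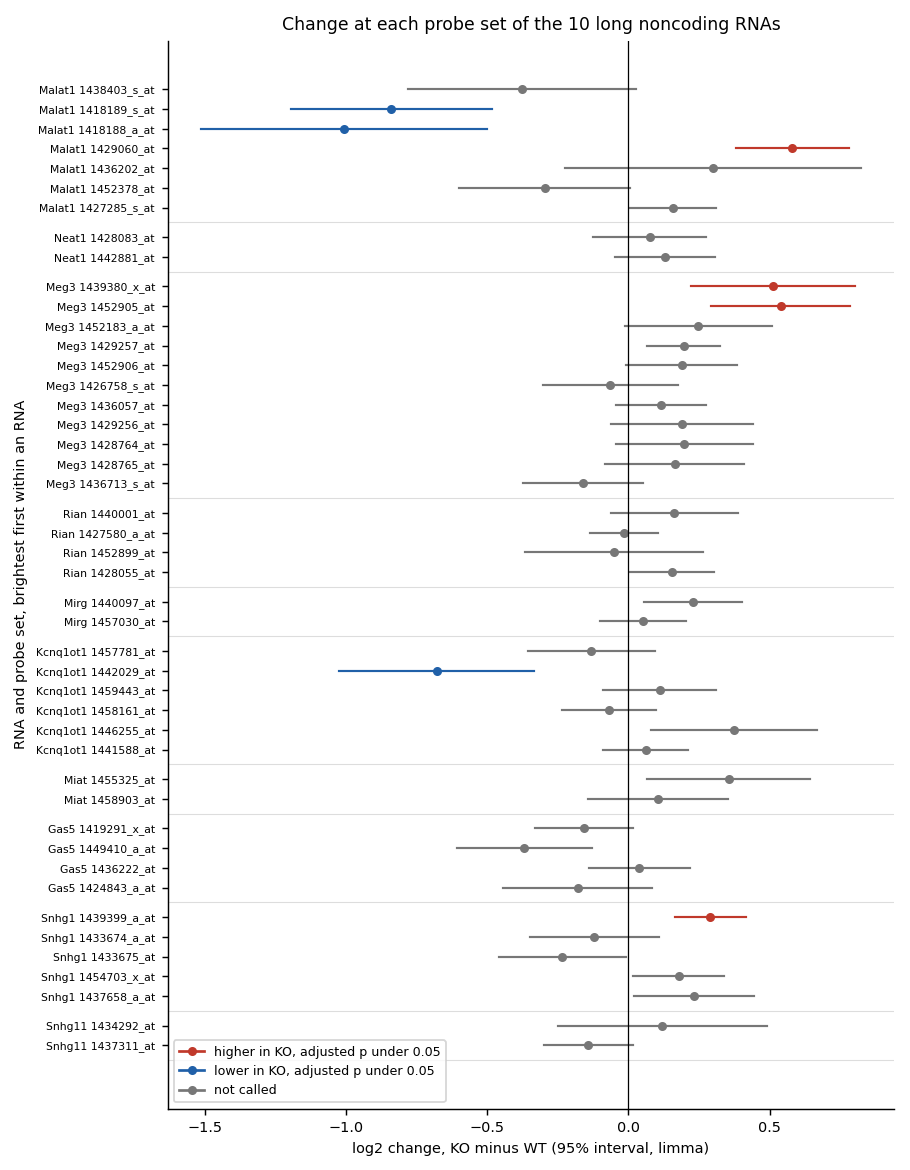
Log2 change, KO minus WT, with its 95% limma interval (x axis) at each of the 45 probe sets (y axis), grouped by RNA and ordered by brightness; red and blue mark the 4 probe sets called higher and the 3 called lower. Malat1 has called probe sets on both sides of 0, from -1.01 to 0.58, whereas 9 of 11 Meg3 points lie above 0.

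These calls rest on few arrays. Only the rises of Malat1 at 1429060_at and of Snhg1 at 1439399_a_at passed whichever array was left out. Those fits called 4.38% to 9.44% of all probe sets, against 9.89% with every array. None of the 7 passed in limma with either beta-actin difference or the Gapdh difference as a covariate. None passed when only the 5 lowest-numbered mice were compared. The same held for every probe set of the gene lists further on. Of all probe sets, the beta-actin 3′ minus 5′, beta-actin 3′ minus middle and Gapdh fits called 0, 1 and 13. The comparison of 5 mice called 0. New calls given below for a fit without 1 array were picked by their result from the fits that each left out 1 array. They are descriptions only.

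Malat1 gave the largest changes of the group and the clearest disagreement. At probe set 1418188_a_at the log2 level was 10.76, 10.06 and 9.83 on the KO arrays and 11.53, 11.03, 11.36 and 10.98 on the WT arrays. Every KO array lay below every WT array, and the level fell 2.01-fold, the KO mean being 10.22 ± 0.48 (SD, n = 3) and the WT mean 11.22 ± 0.26 (SD, n = 4; log2 change -1.01, SE 0.22, limma adjusted p = 0.0281). At 1418189_s_at, which the platform annotation ties to the same database entry, the levels were 12.34, 11.92 and 11.72 in KO and 12.99, 12.78, 12.99 and 12.57 in WT, again without overlap. The fall there was 1.79-fold (log2 change -0.84, SE 0.16, limma adjusted p = 0.0165).

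Probe set 1429060_at, tied to a different database entry, moved the other way. Its levels were 10.41, 10.74 and 10.45 in KO and 9.91, 9.88, 9.99 and 10.03 in WT, so that all 3 KO arrays were above all 4 WT arrays. Malat1 signal at this probe set rose 1.5-fold, from 9.95 ± 0.07 to 10.53 ± 0.18 (log2 change 0.58, SE 0.09, limma adjusted p = 0.0089).

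The remaining 4 Malat1 probe sets did not pass. The brightest, 1438403_s_at, read 12.77, 12.35 and 12.15 in KO against 12.97, 12.60, 13.09 and 12.54 in WT, with overlapping groups (log2 change -0.38, limma adjusted p = 0.194). The log2 change was 0.30 at 1436202_at, -0.30 at 1452378_at and 0.16 at 1427285_s_at, the last 2 under the 40th percentile of level. Averaged over its 7 probe sets, Malat1 differed by -0.21 (SE 0.12, limma adjusted p = 0.245). None of the 10 RNAs was called by such means, beside 9.61% of 18193 genes, and 3 had an unadjusted p under 0.05, beside 30.8%. In deviations from the group means over the 7 arrays, 1418188_a_at, 1418189_s_at and 1438403_s_at went together (Pearson correlation 0.93 to 0.96). Their correlations with 1429060_at were weak and negative (-0.20 to -0.34). Those with 1436202_at, whose change was positive, were 0.72 to 0.79. These arrays share 1 normalization, and the values are a description.

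**Figure D2:**
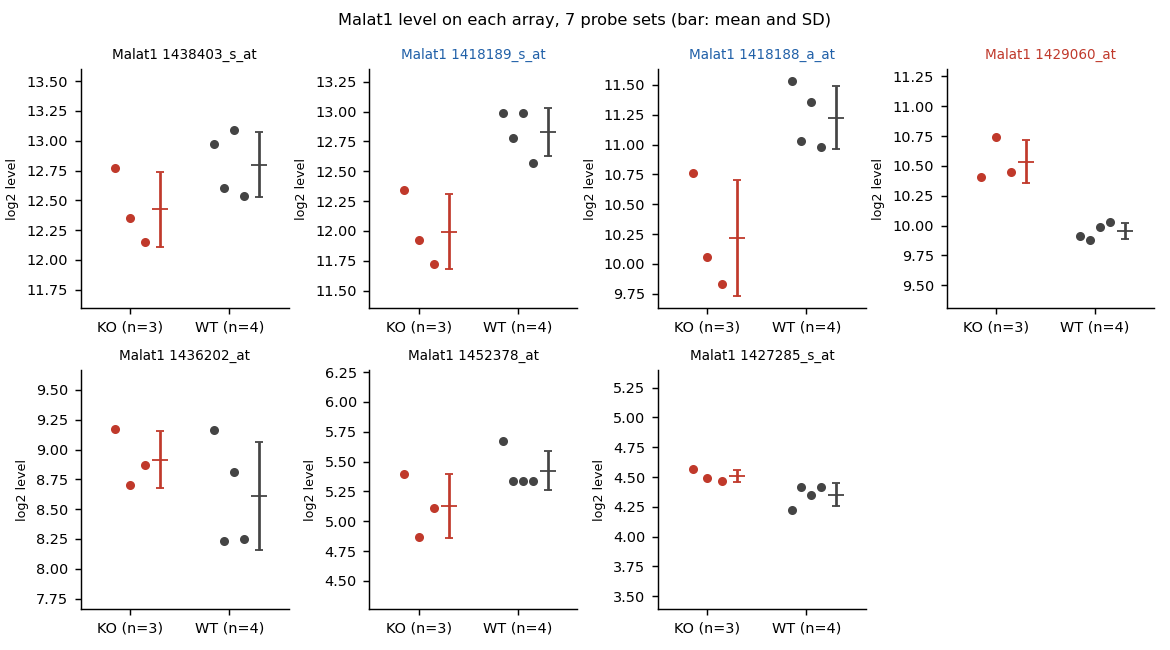
Log2 level of Malat1 on each array (y axis, each panel at least 2 log2 units tall) for KO, n = 3, and WT, n = 4, with mean and SD bars; panel titles in blue mark falls and in red a rise. The KO points lie below the WT points at 1418189_s_at and 1418188_a_at and above them at 1429060_at.

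The fall at 1418188_a_at was no longer called when any of 5 arrays was dropped, namely KO replicates 2 and 3 and WT replicates 1, 3 and 4 (limma adjusted p up to 0.0882), and that at 1418189_s_at without KO replicate 3 or WT replicate 1 (up to 0.0536). Without WT replicate 4, the array that stood apart at Xist, the log2 changes were -1.09, -0.93 and 0.61 in the order given (adjusted p = 0.0529, 0.0288 and 0.0261).

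Neat1, transcribed next to Malat1, showed no called change. Its bright probe set 1428083_at stood at 12.77, 12.79 and 13.03 in KO and 12.85, 12.62, 12.85 and 12.83 in WT. The ranges overlapped, and the difference of 0.08 had a 95% interval of -0.12 to 0.28 (limma adjusted p = 0.576). At 1442881_at the levels were 7.12, 6.86 and 6.96 against 6.74, 6.86, 6.86 and 6.94, with a log2 change of 0.13 (interval -0.047 to 0.31). Both differences were positive and both intervals included 0. Of 10 probe sets of 5 other genes near this pair, 1 was called (10%, beside 9.89% of all probe sets). It was 1437833_at of Ltbp3, a binding protein of latent TGF-beta, which rose 1.68-fold (6.18 ± 0.33 to 6.93 ± 0.21, limma adjusted p = 0.0347). The brightest Ltbp3 probe set differed by 0.17 (limma adjusted p = 0.243). The Ltbp3 call was lost without any 1 of 5 arrays, with adjusted p up to 0.0989.

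Meg3, tied to growth control as a maternally expressed RNA, was higher at 9 of its 11 probe sets and passed at 2. At 1452905_at the levels were 9.0, 9.43 and 9.44 in KO and 8.71, 8.83, 8.76 and 8.70 in WT. No WT array reached a KO array, and Meg3 rose 1.45-fold, the KO mean being 9.29 ± 0.25 (SD, n = 3) and the WT mean 8.75 ± 0.06 (SD, n = 4; log2 change 0.54, SE 0.11, limma adjusted p = 0.0206). At the brightest probe set, 1439380_x_at, the levels were 9.78, 9.85 and 10.34 in KO and 9.57, 9.50, 9.40 and 9.44 in WT. These groups were apart as well, with KO replicate 3 the highest, and the rise was 1.43-fold (log2 change 0.51, SE 0.13, limma adjusted p = 0.0409).

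The other 9 Meg3 probe sets did not pass. Their log2 changes ran from -0.16 to 0.25, 7 of them positive. At 1429257_at the levels were 6.99, 6.92 and 6.89 in KO against 6.75, 6.69, 6.70 and 6.81 in WT, without overlap but not called (log2 change 0.20, limma adjusted p = 0.0629). The negative ones were 1426758_s_at (-0.06) and 1436713_s_at (-0.16), the latter the dimmest of the 11. Averaged over the 11, Meg3 was higher by 0.19 (SE 0.06, limma adjusted p = 0.0766), which did not pass. The letter x in a probe set name marks probes that can bind unrelated transcripts, s marks probes shared by several transcripts, and a marks probes that fit alternative transcripts of 1 gene.

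Both Meg3 calls were lost when 1 of 5 arrays was left out: for 1439380_x_at KO replicate 2 or any WT array (limma adjusted p up to 0.102), and for 1452905_at the same 5 arrays as for Malat1 1418188_a_at (up to 0.0697). Without WT replicate 4 the log2 changes were 0.50 and 0.52 (adjusted p = 0.102 and 0.0612). Once the beta-actin contrast between 3′ and middle probes entered the model, the change at 1439380_x_at was -0.036.

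Rian and Mirg, read from the same imprinted region as Meg3, were dimmer. The brighter Mirg probe set, 1440097_at, read 6.78, 6.52 and 6.76 in KO and 6.39, 6.44, 6.53 and 6.47 in WT. KO replicates 1 and 3 were above all WT arrays and KO replicate 2 among them (log2 change 0.23, limma adjusted p = 0.0931). Without KO replicate 2 the change was 0.31 (adjusted p = 0.0296), and other omissions of 1 array took the adjusted p up to 0.230. The brightest Rian probe set, 1440001_at, read 6.25, 6.04 and 6.46 against 6.01, 6.19, 6.12 and 6.03, with overlap (log2 change 0.16, adjusted p = 0.296). The other 3 Rian probe sets, between a mean level of 3.50 and 4.63, differed by -0.05 to 0.16, and the second of Mirg, at 3.99, by 0.05. At 1452899_at the Rian difference was -0.25 without KO replicate 1 (limma adjusted p = 0.0477). Dlk1, the paternally expressed coding gene of the region and an inhibitor of adipocyte differentiation, read 6.02, 5.96 and 6.03 in KO and 5.92, 5.87, 5.92 and 5.70 in WT (log2 change 0.15, adjusted p = 0.181); none of 3 probe sets of 2 coding genes there passed.

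**Figure D3:**
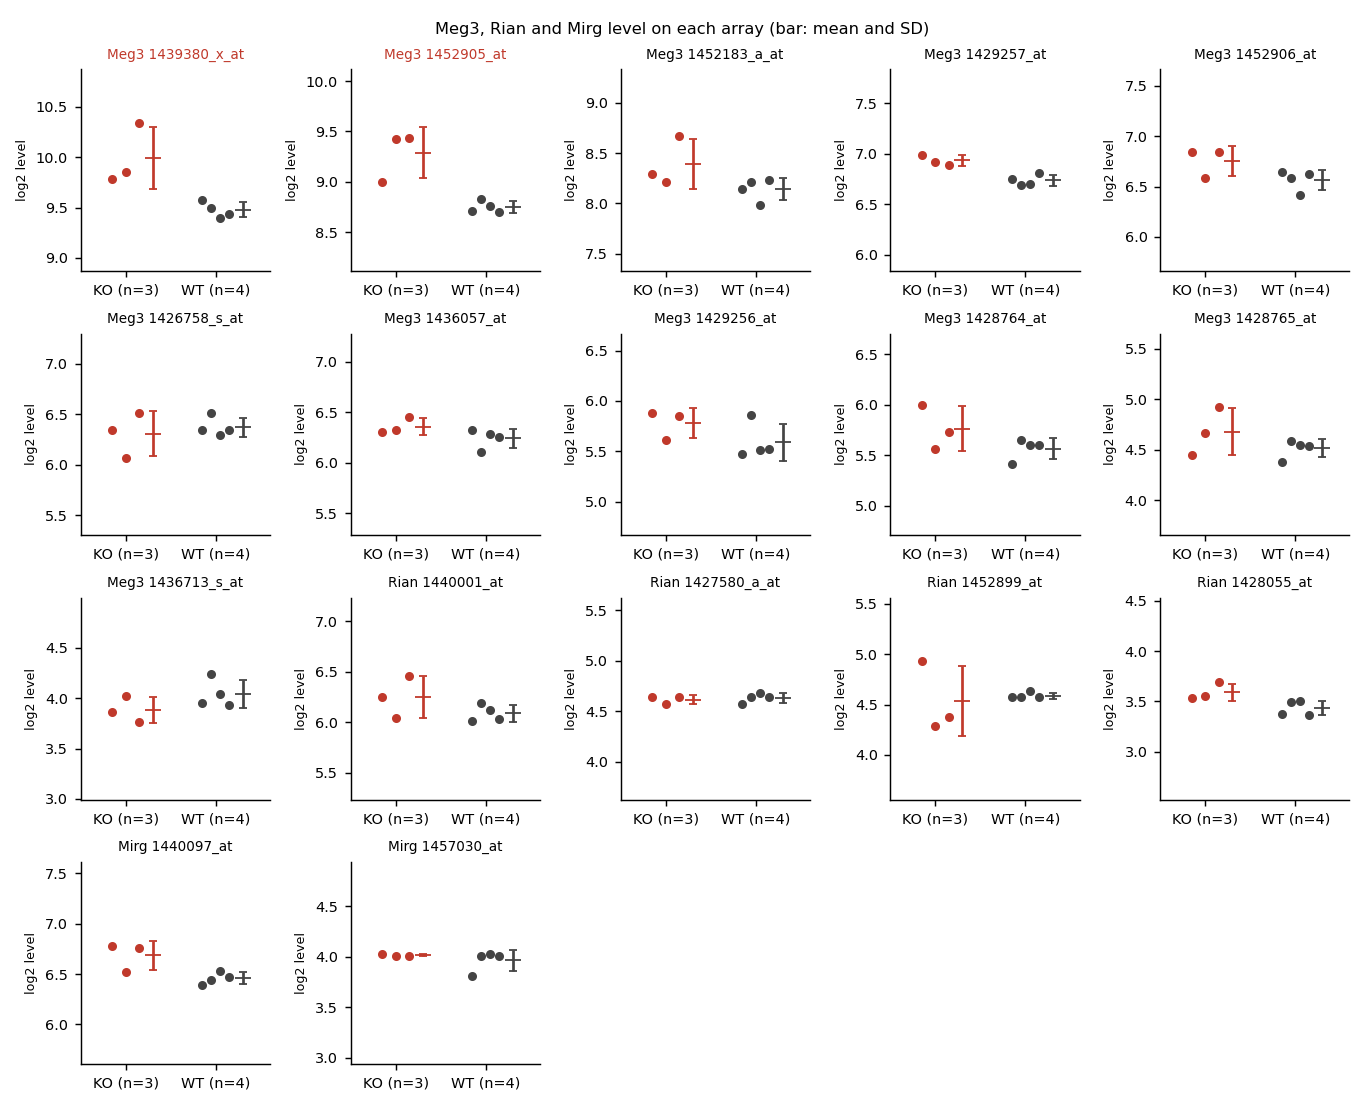
Log2 level of Meg3, Rian and Mirg on each array (y axis, each panel at least 2 log2 units tall) for KO, n = 3, and WT, n = 4, with mean and SD bars; the 2 panel titles in red mark the probe sets called higher. The KO points clear the WT points most at Meg3 1439380_x_at and 1452905_at, and at Rian 1452899_at the KO points run from 4.29 to 4.93 around WT points of 4.57 to 4.63.

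Kcnq1ot1 fell at 1 of 6 probe sets. At 1442029_at the levels were 7.46, 7.18 and 7.40 in KO and 8.45, 7.84, 7.98 and 7.83 in WT. The groups did not overlap, with WT replicate 1 the highest, and the fall was 1.6-fold (log2 change -0.68, SE 0.15, limma adjusted p = 0.0291). At 3 probe sets of like or higher brightness the differences were small: -0.13 at 1457781_at, 0.11 at 1459443_at and -0.07 at 1458161_at, all with overlapping groups. At 1446255_at, a dim probe set, the levels were 4.75, 4.68 and 4.28 in KO and 4.35, 4.04, 4.07 and 4.32 in WT (log2 change 0.38, limma adjusted p = 0.101). Without KO replicate 3 the change was 0.52 (adjusted p = 0.0436), and other omissions of 1 array took the adjusted p up to 0.247. The mean over the 6 probe sets differed by -0.06 (adjusted p = 0.501).

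The call at 1442029_at was lost without any 1 of the 3 KO arrays or WT replicate 3 (adjusted p up to 0.0770), and without WT replicate 4 the log2 change was -0.74 (adjusted p = 0.0495). Of 17 probe sets of 11 coding genes of that domain, 1 rose and 1 fell (11.8% called, beside 9.89% of all probe sets). The rise was that of Phlda2, a growth-restraining placental gene, from 5.14 ± 0.13 to 5.44 ± 0.06 (limma adjusted p = 0.0495). The fall was that of Osbpl5, an oxysterol-binding protein, from 8.30 ± 0.13 to 7.96 ± 0.09 (limma adjusted p = 0.0380). Cdkn1c, an inhibitor of cyclin-dependent kinases, read 7.42, 7.38 and 7.29 in KO and 7.90, 7.58, 7.59 and 8.04 in WT and did not pass (log2 change -0.41, adjusted p = 0.0601), though it did with the level filter (0.0457), with the brightest probe set of each gene (0.0487) and after median centring (0.0482). Kcnq1, the potassium channel gene that holds Kcnq1ot1, differed by 0.10 (adjusted p = 0.469). The Phlda2 call was lost in 6 and the Osbpl5 call in all 7 fits that left out 1 array (adjusted p up to 0.109 and 0.0951).

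Miat was not called. At 1455325_at the levels were 6.47, 6.05 and 6.47 in KO and 5.73, 6.09, 6.01 and 6.07 in WT. KO replicates 1 and 3 were above the WT arrays and KO replicate 2 was not (log2 change 0.36, limma adjusted p = 0.111). Without KO replicate 2 the change was 0.50 (adjusted p = 0.0389), and other omissions of 1 array took the adjusted p up to 0.281. The second probe set, 1458903_at, differed by 0.11 (adjusted p = 0.527).

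Among the snoRNA hosts, Snhg1 rose at its brightest probe set and the rest did not pass. At 1439399_a_at Snhg1 read 11.04, 11.01 and 10.99 in KO and 10.69, 10.75, 10.79 and 10.66 in WT. The spread within each group was small and the groups were apart, so that a rise of 1.22-fold passed (10.72 ± 0.06, n = 4, to 11.01 ± 0.03, n = 3, SD; log2 change 0.29, SE 0.05, limma adjusted p = 0.0169, and 0.27 with 0.0494 without WT replicate 4). The 4 other Snhg1 probe sets split evenly by sign. At 1437658_a_at and 1454703_x_at the log2 changes were 0.23 and 0.18, and at 1433675_at and 1433674_a_at they were -0.23 and -0.12. At 1433675_at the levels were 8.32, 8.64 and 8.23 in KO and 8.63, 8.73, 8.59 and 8.57 in WT, with KO replicate 2 among the WT arrays (limma adjusted p = 0.158). Without KO replicate 2 the change was -0.36 (adjusted p = 0.0293), and other omissions of 1 array took the adjusted p up to 0.387.

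Gas5, a host whose RNA accumulates when growth stops, leaned lower at 3 of 4 probe sets. At 1449410_a_at it read 10.14, 10.24 and 9.82 in KO and 10.47, 10.38, 10.33 and 10.56 in WT. No KO array reached the lowest WT array, with a log2 change of -0.37 (SE 0.10) that missed the threshold (limma adjusted p = 0.0610, but 0.0474 when only probe sets above the 40th percentile were tested and 0.0454 without KO replicate 2). At 1419291_x_at the change was -0.16, at 1424843_a_at -0.18 and at 1436222_at 0.04, each with overlapping groups. At 1424843_a_at it was -0.33 without KO replicate 2 (adjusted p = 0.0431), while other omissions of 1 array took the adjusted p up to 0.637. The mean over the 4 Gas5 probe sets differed by -0.17 (SE 0.07, limma adjusted p = 0.150).

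Snhg11 had 1 probe set of each sign. At 1434292_at KO replicate 1 stood at 7.91 and KO replicates 2 and 3 at 8.58 and 8.66, on either side of the WT arrays, which read 8.32, 8.26, 8.19 and 8.28. The difference was 0.12 (limma adjusted p = 0.633). Leaving out KO replicate 1 gave 0.36 (adjusted p = 0.0231), and leaving out KO replicate 3 gave -0.0175 (adjusted p = 0.960). At 1437311_at it was -0.14 (adjusted p = 0.209).

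**Figure D4:**
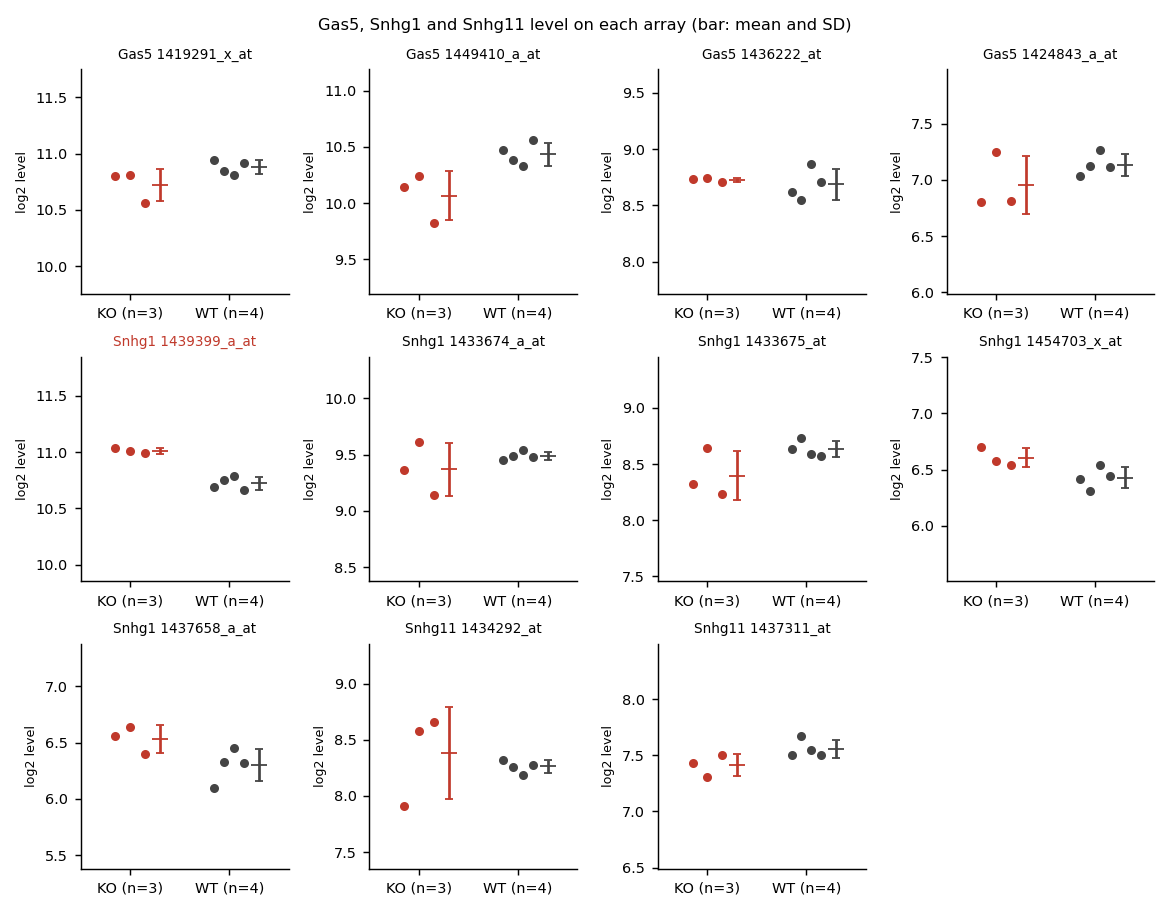
Log2 level of Gas5, Snhg1 and Snhg11 on each array (y axis, each panel at least 2 log2 units tall) for KO, n = 3, and WT, n = 4, with mean and SD bars; the panel title in red marks the probe set called higher. The 3 KO points lie above the 4 WT points at Snhg1 1439399_a_at and below them at Gas5 1449410_a_at, which was not called.

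Whether probe sets of 1 RNA changed by different amounts was asked directly, by subtracting the brightest probe set of an RNA from each of its others on the same array. Of 35 such pairs, 10 reached the smallest exact permutation p of 0.0286 and none passed after adjustment over the pairs (lowest adjusted p = 0.10, two-sided). In a limma fit of all 16752 such pairs on the array, a test chosen after the values were seen, 11 of the 35 differed (31.4%) beside 22.7% of all pairs. They were 4 of 6 pairs for Malat1, 4 of 10 for Meg3, 2 of 4 for Snhg1 and 1 of 5 for Kcnq1ot1. All pairs of an RNA share its brightest probe set, so they are not separate evidence. For Meg3 and Snhg1 that shared probe set was itself called higher. Against 1438403_s_at, the Malat1 log2 change differed by 0.96 at 1429060_at (95% interval 0.53 to 1.39, limma adjusted p = 0.00844), 0.68 at 1436202_at, -0.63 at 1418188_a_at and -0.46 at 1418189_s_at. Against 1439380_x_at, the Meg3 change at 1426758_s_at differed by -0.58 (adjusted p = 0.00690). Against 1439399_a_at, the Snhg1 change at 1433675_at differed by -0.52 (interval -0.76 to -0.28, adjusted p = 0.00890). The positions of the probes along each RNA were not used here, so the part played by the 3′ to 5′ differences of the control probe sets was not tested.

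**Figure D5:**
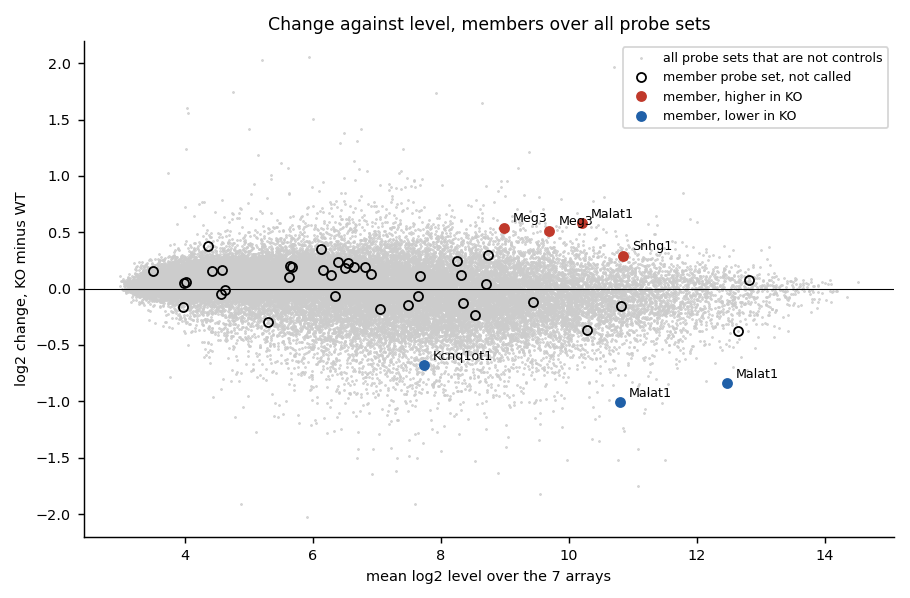
Log2 change, KO minus WT (y axis), against mean log2 level over the 7 arrays (x axis) for all probe sets that are not controls (grey; 7 lie outside the plotted range) and for the 45 of the 10 RNAs. The called members sit at mean levels of 7.73 or more, and the members under the level of 5.47 lie between -0.30 and 0.38.

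Genes known to act with these RNAs were read as lists, to be set against the 9.89% of all probe sets that were called, 3.53% higher and 6.37% lower, or 17.5% of those above the level filter. The genes named have the smallest p of their list, and other probe sets of the same gene often did not share the change. Of 22 such genes with 2 or more probe sets, 20 had at least 1 that was not called, 2 had calls in both directions, and at 9 the brightest probe set was not called.

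Of 90 probe sets of 21 paraspeckle and speckle protein genes, 19 were lower, 9 higher and 62 not called (31.1% called, median log2 change -0.09). Sfpq, a core paraspeckle protein, fell at 3 of 6 probe sets, by up to 1.82-fold (limma adjusted p = 0.00558), and by -0.72 on the log2 scale at the brightest. Srsf1, a splicing factor of speckles, fell 1.83-fold at 1 of 7 (adjusted p = 0.00252), with -0.06 at the brightest. Cpsf6, a cleavage factor subunit, fell 1.87-fold at 1 of 6 (adjusted p = 0.00436), with 0.02 at the brightest. Tardbp, an RNA-binding protein, fell 1.58-fold at 1 of 5 probe sets (adjusted p = 0.00226) and rose at 2, its brightest by 0.24 (adjusted p = 0.0252).

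The share of calls among genes for RNA 3′ end processing and the nuclear exosome was near that of all probe sets, with 3 of 38 lower and 1 higher (11%). Mettl16, which binds the Malat1 3′ end, fell 1.56-fold at 1 of 2 probe sets and differed by 0.17 at the other. The exosome subunits Exosc7, Exosc10 and Exosc8 changed by -0.27, -0.44 and 0.42, at 1 of 1, 1 of 4 and 1 of 2 probe sets. Of 28 probe sets of decay genes for messages with early stop codons, 2 fell (7.14%), 1 of 6 for Etf1, a translation release factor (-0.69, with 0.19 at the brightest), and 1 of 2 for Xrn1, a 5′ to 3′ exonuclease (-0.35). The Exosc10 and Xrn1 calls were lost when 1 of 4 and 1 of 5 arrays was left out (limma adjusted p up to 0.0762 and 0.140).

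Of 34 probe sets of snoRNA host genes, coding hosts included, 3 fell and 1 rose (11.8%). Nucleolin, Ncl, fell 1.86-fold at 1 of 5 probe sets, its brightest, and its next differed by -0.28 (limma adjusted p = 0.111). The translation initiation helicase Eif4a2 fell 1.27-fold at its only probe set, while Eif4a1 fell 1.80-fold at 1 of 3, with -0.03 at the brightest. Snhg10 rose 1.26-fold at 1 of 3. The Eif4a1 and Snhg10 calls were lost when 1 of 5 and 1 of 6 arrays was left out (limma adjusted p up to 0.0876 and 0.139). Translation genes with oligopyrimidine starts had 12 of 43 probe sets lower and 1 higher (30.2%). The nucleolar Npm1 fell at both probe sets, by 0.23 at the brighter and 0.85 at the other on the log2 scale, and Naca likewise by 0.43 and 0.76. The histone chaperone Nap1l1 fell at 4 of 7 (-0.47 at the brightest) and the initiation factor Eif4b at 1 of 3 (-0.55, with -0.21 at the brightest).

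Of 52 probe sets of other long noncoding RNAs 5 rose and 4 fell (17.3%). Airn, the imprinted antisense RNA of Igf2r, disagreed among its 5 probe sets as Malat1 did. At 1436627_at it read 7.65, 7.97 and 7.80 in KO and 6.95, 6.90, 7.0 and 6.80 in WT, without overlap (1.86-fold higher, limma adjusted p = 0.00302), and a second probe set rose by 0.67. Another fell by 0.50 on the log2 scale (adjusted p = 0.0318), and the brightest differed by 0.13 (adjusted p = 0.418). Mir22hg rose by 0.54 at its only probe set, Dleu2 fell at 2 of 3 (-0.33 at the brightest) and Oip5os1 at 1 of 3 (-0.41, with -0.21 at the brightest), while Tug1 differed by -0.25 (adjusted p = 0.136). Of 68 probe sets of 29 other imprinted genes 7 fell and 3 rose (14.7%), among the former 1 of 2 for Sfmbt2 (-1.27), the only one for Blcap (-0.82) and 1 of 3 for Grb10, an adaptor of insulin signalling (-0.44). Airn belongs to this list and to the one before, so its 2 rises and 1 fall are counted in both.

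Cell type marker lists are given because these RNAs differ between cell types and bulk tissue cannot separate fewer cells from less RNA per cell. Summed as the mean over its probe sets, the mesothelial list stood at 5.78 to 6.47 in KO and 6.57 to 7.49 in WT with 3 of 5 probe sets lower, and the platelet list at 8.23 to 8.43 in KO and 7.60 to 7.95 in WT with 4 of 6 higher. Of the lung list 3 of 12 probe sets were lower (11.58 to 11.78 against 11.88 to 12.01), and of the fibroblast list 2 of 12. The called shares of the mesothelial, platelet, lung and fibroblast lists were 60%, 66.7%, 25% and 16.7%. Beside them stand 9.89% of all probe sets and 17.5% of those above the level filter. No probe set of the lymphocyte, nerve, cardiac muscle or thymus lists was called. Their part in the changes of Malat1, Meg3, Snhg1 and Kcnq1ot1 was not tested.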

How the data were processed

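Affymetrix mouse arrays of 7 left lungs were used, 3 KO and 4 WT, with groups and replicate numbers from the labels. The deposited table gives log2 levels of 45101 probe sets to 2 decimals; which method the authors used is not stated (per the submitters' processing notes, the tools are RMA, MAS5 and Affymetrix Expression Console), and the log base was taken from the range of the values. Of the 45037 probe sets that are not controls, 34945 have 1 gene symbol in the platform annotation, 932 several and 9160 none. For 34741 of those with 1 symbol, the name was kept or updated by gene identifier from a RefSeq table of GRCm38.p6.

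The deposited values went into limma 3.58.1 (lmFit, then eBayes; R 4.3.3). Genotype was the sole term, no level filter was set, and the Benjamini-Hochberg adjustment ran over all probe sets with a threshold of 0.05. Single values were compared by an exact two-sided permutation test over 35 splits of the arrays. No counting depth applies to arrays, and their number limits the precision.

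The RNAs and lists were chosen with earlier results of these data known. Every probe set of the 10 RNAs is described; of each list the 4 genes with the smallest p among called probe sets are named, with Ltbp3, Dlk1, Kcnq1, Cdkn1c, Xist and Tug1 whatever their values, and the 2 brightest genes of the lung marker list (the rule held for every marker list, and the others are given as lists). H19 belonged to the same rule but has no probe set with a single symbol, and a further gene of the rule is not reported here. For Malat1, Meg3 and Gas5 the 3 genes most like the brightest probe set in deviations from group means were sought.

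Simulated data of the same 45037 probe sets, 3 arrays against 4, were used to test the fit. It recovered 41 of 67 planted log2 changes of 0.5, 64 of 67 of 1 and 64 of 66 of 1.5, with 7 false calls. The simulated noise was independent between probe sets and held no array-wide difference between the groups. The false calls therefore do not measure those of the real arrays, where control differences go with genotype. Alternatives covered a filter on level, 1 probe set or a mean per gene, normalization, the variance model, array weights, control differences as covariates, the replicate number as a block and leaving out arrays. Plots used matplotlib 3.10.9 and Python 3.11.15.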

Additional observations from a re-analysis of the deposited data

Results flagged for a closer look

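Among the 4 WT arrays, 5 of the 45 probe sets had 1 value apart from the other 3 by Dixon's 95% limit, where chance gives about 1 in 20. Malat1 at 1452378_at read 5.67 on WT replicate 1 and 5.34 on each of the others. Neat1 at 1428083_at read 12.62 on WT replicate 2 against 12.83 to 12.85. Meg3 at 1429256_at read 5.86 on WT replicate 2 against 5.47 to 5.52. Rian at 1452899_at read 4.63 on WT replicate 3 against 4.57 on each of the others, and Mirg at 1457030_at read 3.81 on WT replicate 1 against 4.01 to 4.03. None of these 5 probe sets was called, and the Malat1, Rian and Mirg ones lay under the 40th percentile of level; 6.97% of all probe sets share 1 value to 2 decimals on 3 or more WT arrays.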

How the results depend on the processing

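The main comparison called 4 of the 45 probe sets higher and 3 lower, and 20 and 50 probe sets of the gene lists. The counts for the 45 stayed within 1.5 times of these under the level filter, quantile normalization, median centring, cyclic loess, the trended robust variance and array weights, which called 13 list probe sets higher. Among all called probe sets 35.6% were higher, against 46.5% after quantile normalization, 24.1% after median centring and 37.3% after cyclic loess; the median change of all probe sets stayed within 0.1 of 0. Keeping the brightest probe set of each gene above the level filter gave 2 higher and 0 lower of 10 (lists 10 and 18), and gene means gave 0 and 0 (lists 4 and 21; limma, 3 of 10 at an unadjusted p under 0.05). Taking the beta-actin 3′ minus 5′, beta-actin 3′ minus middle or Gapdh 3′ minus middle difference as a covariate, or omitting WT replicates 3 and 4, limma called 0 higher and 0 lower among the 45 and in the lists, with 19, 7, 13 and 12 of the 45 at an unadjusted p under 0.05; over all probe sets 0, 1, 13 and 0 were called. Those covariates also differ between the groups, so their part and that of genotype cannot be told apart. Leaving out 1 array gave 2 to 5 higher and 0 to 4 lower (lists 8 to 17 and 29 to 45), with 4.38% to 9.44% of all probe sets called. Replicate numbers did not pair the arrays (correlations of deviations 0.0426, -0.107 and 0.0480, and 3 of 6 arrays correlated best with their own number). With the replicate block, 4 of the 45 were called, 1 higher and the rest lower (lists 5 and 25). Of all probe sets 1322 were called (2.94%). The exact test called 0 pairs of probe sets of 1 RNA, 10 at an unadjusted p under 0.05, and limma called 11. The cause of these shifts was not tested.

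Signs turned mainly at small differences. With the Gapdh covariate the changes became 0.13 for Malat1 1452378_at, 0.28 for Meg3 1426758_s_at, 0.22 for Rian 1452899_at, -0.022 for Mirg 1457030_at, -0.14 for Kcnq1ot1 1459443_at, -0.14 for Gas5 1436222_at, -0.028 for Snhg1 1437658_a_at, -0.076 for Snhg11 1434292_at and -0.10 for Kcnq1. With beta-actin 3′ minus 5′ they became -0.0097 for Malat1 1436202_at, 0.34 for Meg3 1426758_s_at, 0.062 and 0.26 for Rian 1427580_a_at and 1452899_at, -0.16 for Kcnq1ot1 1459443_at, -0.067 for Gas5 1436222_at, -0.15 and 0.052 for Snhg11 1434292_at and 1437311_at, 0.71 for Xist and -0.078 for Kcnq1. With beta-actin 3′ minus middle they became -0.13 for Neat1 1428083_at, -0.036, -0.096, -0.020 and -0.12 for Meg3 1439380_x_at, 1452183_a_at, 1436057_at and 1428765_at, -0.12, 0.21 and -0.0030 for Rian 1440001_at, 1452899_at and 1428055_at, 0.062 for Kcnq1ot1 1458161_at, 0.067, 0.022 and 0.020 for Gas5 1419291_x_at, 1449410_a_at and 1424843_a_at, 0.19 for Snhg1 1433674_a_at, -0.32 for Snhg11 1434292_at, 0.11 for Tug1 and 1.92 for Xist. Array weights gave 0.0007 for Rian 1452899_at. Cyclic loess and quantile normalization gave -0.010 and -0.011 for Mirg 1457030_at, and -0.0010 and -0.0051 for Kcnq1ot1 1441588_at. Without WT replicates 3 and 4 the changes were 0.012 for Rian 1427580_a_at, 0.0017 for Kcnq1ot1 1458161_at and 0.082 for Xist, and the replicate block gave 0.087 for Xist. Leaving out 1 array at a time gave ranges that cross 0: -0.0075 to 0.12 for Neat1 1428083_at, -0.17 to 0.055 for Meg3 1426758_s_at, -0.037 to 0.0075 and -0.25 to 0.070 for Rian 1427580_a_at and 1452899_at, -0.0067 to 0.10 for Gas5 1436222_at, -0.0175 to 0.36 for Snhg11 1434292_at and -2.05 to 0.087 for Xist, whose positive value came without WT replicate 4.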

Other observations

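By deviations from the group means over the 7 arrays, the genes most like the brightest probe set of Malat1 were Marf1, Tyms and C87436 (Pearson correlation 0.992, 0.992 and 0.989), of Meg3 Casr, Ttll6 and Ntn1 (0.997, 0.994 and 0.993) and of Gas5 Olfm1, Slfn1 and Ccl5 (0.996, 0.995 and 0.995). Each was picked from 34931 to 34938 probe sets on 7 arrays, so the values only describe these arrays. Of the 9, Marf1 and Olfm1 were called in the comparison of KO with WT, with log2 changes of -0.45 and -0.52.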
